A study of Mus musculus with 14 samples.

Results

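The cultures described here belong to the mouse line that carries glutamate in place of serine at residue 1382 of BRG1 (S1382E, called SE), and they were compared after 1 h of 50 mM KCl and at basal. They make up 6 of the 14 RNA-seq libraries of the series. The 3 KCl libraries were SE culture 1, SE culture 2 and 1 culture of wild-type littermates, and the 3 basal libraries carried the same name stems; they were chosen by those column names in the deposited gene matrix. All were primary cortical neurons from E16.5 embryos, kept in neurobasal plus with the B27 plus supplement. By the protocol given for every sample, basal ones included, cultures received on day 5 the sodium channel blocker tetrodotoxin at 1 µM and the NMDA receptor blocker APV at 100 µM to stop spontaneous activity. KCl was added on day 6. BRG1, encoded by Smarca4, is an ATPase of the BAF chromatin remodelling complex, and the labels describe the substitution as a knock-in without giving its zygosity. The other 8 libraries came from a second line with alanine at that residue (S1382A, called SA), with 2 SA and 2 wild-type littermate cultures, each at KCl and basal. A KCl and a basal library with the same stem are called a culture here, although nothing in the labels ties the pair to 1 dish or says that replicates came from separate embryos or litters. The p-values below therefore measure the spread between these samples, which may be technical.

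Raising external potassium depolarises the neuronal membrane and opens L-type voltage-gated calcium channels. Calcium then acts through calmodulin-dependent kinases and the MAP kinase cascade on transcription factors already present in the nucleus, such as CREB, SRF with its ELK partners, and MEF2. These switch on immediate early genes within minutes and without new protein synthesis; many of those genes encode transcription factors that go on to act on later genes, and others encode synaptic proteins, secreted factors and inhibitors of the same signalling cascades.

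Values of 3 libraries are given throughout in the order SE culture 1, SE culture 2, wild-type culture. The 6 libraries held 22817933 to 23096206 estimated counts each and 24682 to 25261 detected gene symbols. Markers of glutamatergic neurons summed to 3408 to 3699 CPM after KCl and 3407 to 3492 CPM at basal, where CPM is the estimated count scaled to the library's total and its TMM factor. GABAergic markers summed to 299 to 343 CPM after KCl and 237 to 256 CPM at basal, and astrocyte markers to 699.7 to 764 CPM after KCl and 696 to 744 CPM at basal. The labelled cell type thus had its defining transcripts, with glia and interneurons in the same wells. With all 14 libraries scaled together, glutamatergic markers summed to 3567 to 3978 CPM in the SE line and 858 to 2432 CPM in the SA line, with no overlap. Xist, which is transcribed in female cells, and Ddx3y, on the Y chromosome, were both present in all 6 libraries, so each library held cells of both sexes: Xist had 150.1, 189.7 and 139 CPM after KCl, against 262, 167 and 287 CPM at basal. In such bulk samples, fewer cells of a type and less RNA per cell cannot be told apart.

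After 1 h of KCl, 960 of 15907 genes tested rose (6.04%) and 1030 fell (6.48%), at an adjusted p under 0.05 by edgeR's quasi-likelihood test with culture as a block. At an unadjusted p under 0.05 there were 3790 genes (23.8%), and in 4584 (28.8%) the KCl and basal libraries did not overlap. The rises were larger than the falls. Of the genes tested, 250 rose at least 2-fold (1.57%) and 125 fell at least 2-fold (0.786%). At 4-fold the counts were 102 and 12, and at 8-fold they were 48 and 0. A rise of at least 32-fold was reached by 21 genes, and one of at least 64-fold by 10. The genes that rose at least 2-fold took 2.89%, 2.60% and 2.54% of all estimated counts in SE culture 1, SE culture 2 and the wild-type culture after KCl, against 0.343%, 0.343% and 0.366% at basal. Both directions began from low levels: the median basal level was 3.15 CPM among the genes that rose at least 2-fold and 3.29 CPM among those that fell at least 2-fold, against 17.2 CPM over all genes tested.

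Most rises of at least 2-fold were seen in each of the 3 cultures, in genes that were called on these same cultures. Of the 250 genes, 182 rose at least 2-fold in each culture and 9 had a ratio under 1.2 in 1 of them. The median log2 ratio of the 48 genes that rose at least 8-fold was 4.58 in SE culture 1, 4.57 in SE culture 2 and 4.16 in the wild-type culture. Of the 125 genes that fell at least 2-fold, 53 were at least 2-fold lower in each culture, and 3 had a ratio of at least 1 in 1 culture. The number of calls depended on which cultures were in the fit. Without SE culture 1 it was 733 rises and 597 falls, without SE culture 2 it was 1815 and 1938, and without the wild-type culture it was 565 and 460. Falls of at least 2-fold numbered 212 without SE culture 2.

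**Figure D1:**
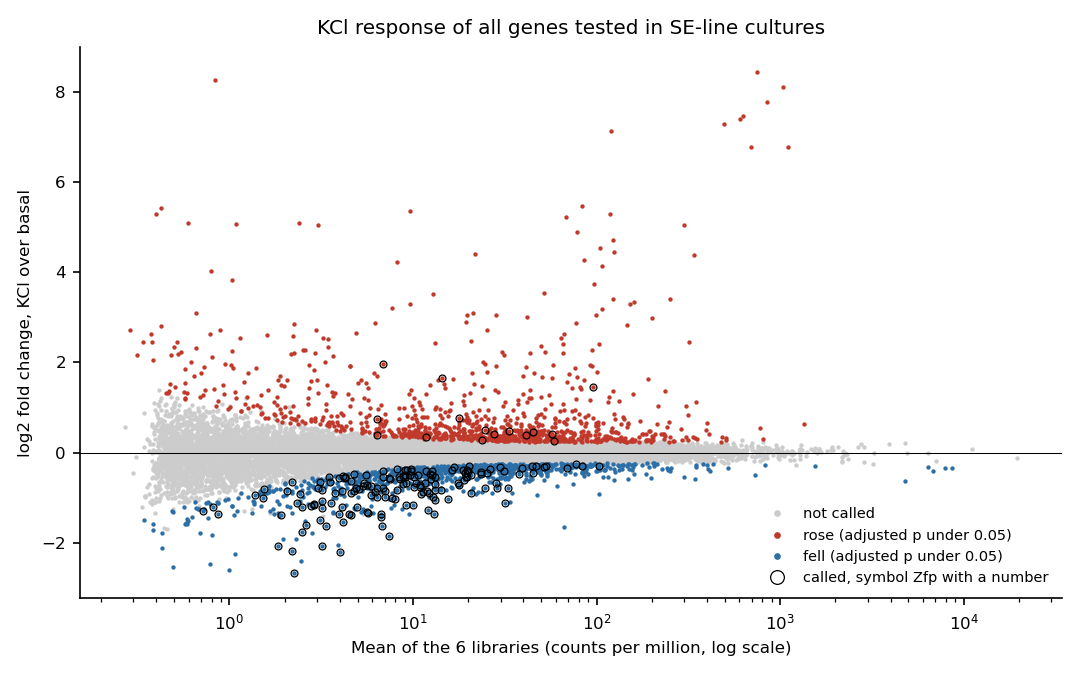
Log2 fold change of each of the 15907 genes tested (KCl over basal, vertical axis) against its mean level over the 6 libraries (CPM, log scale); red genes rose and blue genes fell at an adjusted p under 0.05, and black rings mark called genes named Zfp with a number. Rises reach a log2 fold change of 8.43 and span all levels, falls reach -2.68, and most of the ringed genes lie below the zero line.

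The strongest responders were transcription factors. Log2 fold changes are KCl over basal, with the standard error of the model (n = 3 cultures). Fosb, an AP-1 subunit that pairs with JUN proteins, had 1728, 1407 and 1329.6 CPM after KCl, against 4.95, 4.42 and 3.53 CPM at basal, a log2 fold change of 8.43 ± 0.12 (adjusted p = 1.57e-25). Npas4, a factor induced in neurons by calcium entry and known for its part in inhibitory synapse formation, had 2390.5, 1994 and 1846 CPM after KCl, against 8.78, 7.88 and 5.92 CPM at basal. Its log2 fold change was 8.11 ± 0.11 (adjusted p = 1.57e-25). In both genes every KCl library lay far above every basal library, and SE culture 1 had the highest KCl level.

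Nr4a1, an orphan nuclear receptor, had 1879.7, 1681 and 1527 CPM after KCl, against 7.74, 7.54 and 7.97 CPM at basal (7.77 ± 0.11 on the log2 scale). Fos, the founding AP-1 subunit, had 1374, 1233 and 1124 CPM after KCl, against 7.05, 5.93 and 8.19 CPM at basal (7.46 ± 0.12). Egr4, a zinc finger factor of the early growth response family, had 1504, 1079 and 1018 CPM after KCl, against 7.74, 6.37 and 7.23 CPM at basal (7.38 ± 0.12). In all of these the KCl libraries ran in the order SE culture 1, SE culture 2, wild-type culture, and no KCl value came near a basal one. Arc, which encodes a capsid-forming protein that controls AMPA receptor endocytosis (chr15:74669083-74672570, minus strand), had 1138, 909 and 893 CPM after KCl, against 6.32, 6.06 and 6.32 CPM at basal (7.29 ± 0.11). Egr2 had 252, 239.8 and 224 CPM after KCl, against 1.42, 1.65 and 2.05 CPM at basal (7.13 ± 0.13), Junb, the AP-1 partner of FOS proteins, had 1630.1, 1238 and 1266 CPM after KCl, against 12.5, 12.6 and 12.4 CPM at basal (6.78 ± 0.11), and Egr1 had 2387, 2109 and 2064 CPM after KCl, against 21, 16.8 and 22.4 CPM at basal (6.77 ± 0.11). These 9 genes were the top of the ranking among named genes whose libraries averaged 1 CPM or more and whose KCl and basal values were apart.

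Per transcript length, 5 of these 9 genes had KCl levels close to each other and the other 4 were lower. Junb averaged 1060.0 TPM after KCl, Nr4a1 1026 TPM, Egr1 1019 TPM, Fos 1011 TPM and Npas4 953 TPM, against 9.42, 4.60, 8.97, 5.74 and 3.40 TPM at basal. Egr4 averaged 716 TPM after KCl and 4.17 TPM at basal, and Arc 464 TPM after KCl and 2.89 TPM at basal. Fosb averaged 599 TPM after KCl and 1.67 TPM at basal, so it had the largest fold change but not the highest level per length. Egr2 had the lowest level of the 9, 134 TPM after KCl and 1.02 TPM at basal.

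The next genes by fold change were Gadd45b, with 176, 159 and 156 CPM after KCl, against 3.23, 3.60 and 4.27 CPM at basal (5.46 ± 0.11), Egr3 (5.29 ± 0.10), Klf4 (5.23 ± 0.11), the microRNA genes Mir212 (5.10 ± 0.34) and Mir132 (5.07 ± 0.48), and Cyr61 (5.05 ± 0.11). GADD45B is a stress sensor linked to DNA demethylation, KLF4 is a Kruppel-like factor, and Cyr61 encodes a secreted matrix protein that is a target of SRF and YAP (chr3:145646976-145649981, minus strand). Klf4 had 144, 131 and 126 CPM after KCl, against 3.74, 3.12 and 3.79 CPM at basal. Cyr61 had 619.5, 532 and 604 CPM after KCl, against 19.4, 12.7 and 21.6 CPM at basal. The KCl and basal libraries of each were widely separated.

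**Figure D2:**
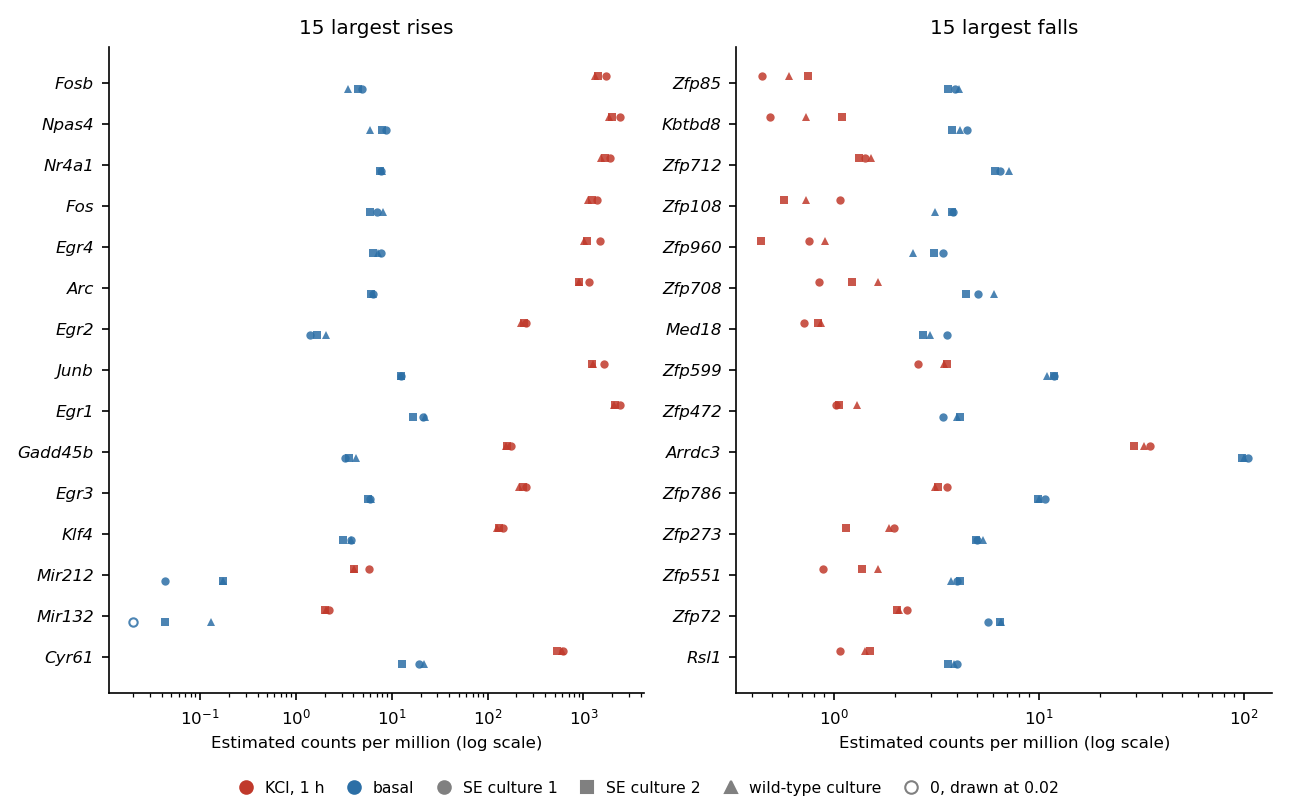
Level in each of the 6 libraries (CPM, log scale) of the 15 named genes that rose most and the 15 that fell most, KCl in red and basal in blue, with a symbol for each culture; an open circle drawn at 0.02 marks a value of 0. Only genes whose KCl and basal libraries did not overlap were eligible, so the lack of overlap comes from the choice of genes. The gap is far wider for Fosb and Npas4 than for any gene that fell.

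The promoters of the leading genes are shown because CREB and SRF, the calcium-responsive factors named above, bind known short motifs next to such genes. RefSeq (GRCm38.p6) gave a promoter for 10 of the 15 named genes that rose most, under the symbol Ccn1 for Cyr61. The 250 bases before the annotated start are printed 5′ to 3′ on the gene's own strand. Capitals mark the short form of the cAMP response element, TGACG or its reverse complement CGTCA, and, in Egr2, the CArG box bound by SRF, which is CC, then A or T at each of 6 places, then GG. The promoters are those of Fosb (chr7:19310046-19310295, minus strand), Npas4 (chr19:4989972-4990221, minus), Nr4a1 (chr15:101266596-101266845, plus), Fos (chr12:85473640-85473889, plus), Egr4 (chr6:85513590-85513839, minus), Egr2 (chr10:67537619-67537868, plus, 1 of 5 annotated starts) and Junb (chr8:84978749-84978998, minus).
Fosb: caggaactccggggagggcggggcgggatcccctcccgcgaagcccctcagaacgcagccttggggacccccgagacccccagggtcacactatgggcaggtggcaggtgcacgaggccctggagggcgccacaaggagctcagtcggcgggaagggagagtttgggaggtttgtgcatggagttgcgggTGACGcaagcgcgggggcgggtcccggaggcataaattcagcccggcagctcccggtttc
Npas4: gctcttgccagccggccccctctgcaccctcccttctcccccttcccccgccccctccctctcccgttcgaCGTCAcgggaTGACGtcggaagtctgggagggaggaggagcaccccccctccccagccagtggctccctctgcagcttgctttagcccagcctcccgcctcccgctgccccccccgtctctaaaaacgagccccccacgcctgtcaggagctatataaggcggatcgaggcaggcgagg
Nr4a1: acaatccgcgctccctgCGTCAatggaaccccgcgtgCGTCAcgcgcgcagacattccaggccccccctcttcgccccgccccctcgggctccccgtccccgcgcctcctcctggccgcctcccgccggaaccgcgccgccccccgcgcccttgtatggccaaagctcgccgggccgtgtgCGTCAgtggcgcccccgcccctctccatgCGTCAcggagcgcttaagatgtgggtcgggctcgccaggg
Fos: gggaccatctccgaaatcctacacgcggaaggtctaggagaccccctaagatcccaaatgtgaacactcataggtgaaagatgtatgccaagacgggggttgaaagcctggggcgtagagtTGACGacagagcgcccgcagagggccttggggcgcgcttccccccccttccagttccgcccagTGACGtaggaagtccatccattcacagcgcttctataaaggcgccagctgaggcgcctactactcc
Egr4: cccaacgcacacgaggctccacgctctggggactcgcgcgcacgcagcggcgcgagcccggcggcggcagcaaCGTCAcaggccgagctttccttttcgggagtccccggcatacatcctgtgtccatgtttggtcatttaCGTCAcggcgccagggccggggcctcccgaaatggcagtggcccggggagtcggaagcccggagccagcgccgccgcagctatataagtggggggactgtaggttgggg
Egr2: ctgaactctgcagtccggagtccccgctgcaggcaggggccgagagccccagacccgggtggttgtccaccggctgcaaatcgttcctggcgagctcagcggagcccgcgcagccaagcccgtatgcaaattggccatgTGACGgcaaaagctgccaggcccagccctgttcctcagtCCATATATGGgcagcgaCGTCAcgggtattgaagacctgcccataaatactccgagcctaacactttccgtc
Junb: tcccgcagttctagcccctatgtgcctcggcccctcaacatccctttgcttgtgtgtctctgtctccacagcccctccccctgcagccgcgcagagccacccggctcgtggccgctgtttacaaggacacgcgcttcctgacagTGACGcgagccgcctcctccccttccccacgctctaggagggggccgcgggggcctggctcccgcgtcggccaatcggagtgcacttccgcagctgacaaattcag

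Each of the 7 windows printed held the short form at least once: 4 matches in Nr4a1, 2 each in Npas4, Fos, Egr4 and Egr2, and 1 each in Fosb and Junb. The windows of 2 of the 5 annotated Egr2 starts held no short form. The full palindrome TGACGTCA, which contains the short form on both strands, was in none of the 7. Egr2 alone among them held a CArG box within 250 bases. The Gadd45b window held neither motif, and those of Klf4 and Cyr61 held the short form once each. Over all tested genes with a RefSeq promoter, the short form was in 3987 of 11643 (34.2%), the palindrome in 413 (3.55%) and the CArG box in 188 (1.61%), counted on both strands in a window of 250 bases before to 50 bases after the start. A comparison of risen with other genes is void, since under 80% of each set had a promoter in the table: 33 of the 48 genes that rose at least 8-fold, 162 of the 250 that rose at least 2-fold and 11643 of the 15907 tested. A match is a string of letters and no evidence of binding.

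Members of known families rose together, as counts by list show. All 9 AP-1 members tested rose, with a median log2 fold change of 4.40, where the median over all genes was 0.0029. Besides Fosb, Fos and Junb these were Atf3 (4.89), Maff (4.40), Fosl2 (3.39), Jun (3.33), Fosl1 (2.71) and Jund (1.35). Jund, which is expressed at a steady level in most cells, already had 123, 149.7 and 126 CPM at basal, against 403, 305 and 314 CPM after KCl. Atf3, a stress-induced AP-1 partner, had 153, 159 and 143 CPM after KCl, against 4.39, 5.80 and 5.18 CPM at basal. The KCl and basal libraries of both did not overlap.

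All 4 EGR factors rose, and so did Nab2 (0.48), which encodes a corepressor of EGR proteins; its paralogue Nab1 had a log2 fold change of 0.11 ± 0.08 and was not called. All 3 NR4A receptors rose. Nr4a3 had 690.3, 683 and 581 CPM after KCl, against 35.4, 26.9 and 31.8 CPM at basal (4.38 ± 0.10), while Nr4a2, a receptor needed by dopamine neurons, had a higher basal level and a smaller rise, with 553, 579 and 493 CPM after KCl, against 94.9, 103 and 101 CPM at basal (2.44 ± 0.08). Npas4 was the only called gene of its list: its dimer partners Arnt (-0.04) and Arnt2 (0.04) and the paralogue Arntl (0.05) were not called, and the libraries of each overlapped.

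Among 12 Kruppel-like factors 6 rose and 2 fell. After Klf4 came Klf2 (1.83), Klf16 (1.30), Klf9 (1.04), Klf5 (0.97) and Klf11 (0.50). Klf6 (-0.26) and Klf7 (-0.29) fell; neither was called when SE culture 1 or the wild-type culture was left out, since the list then had 0 falls. Klf9, known as a target of glucocorticoid and thyroid hormone, had 293, 288 and 287 CPM after KCl, against 145, 132 and 146 CPM at basal.

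Of 18 other inducible regulators 12 rose and 1 fell. Ier2, an immediate early gene, had 263, 218 and 229 CPM after KCl, against 8.69, 9.57 and 8.76 CPM at basal (4.71 ± 0.10). Nfil3 (3.29) encodes a repressor that acts on clock genes, Csrnp1 (3.05) a nuclear protein, Cebpb (2.22) a leucine zipper factor, and Crem (1.40) a CREB relative with a short repressor form. Per1, a clock gene with a CREB-driven response to light in the brain, rose (1.78), while Per2 (0.18) was not called. Srf itself rose (1.12), as did Smad7 (1.63), an inhibitor of TGF-beta signalling. Mycn, a proto-oncogene of progenitors and young neurons, fell (-0.94 ± 0.08), with 35.3, 32.1 and 30.4 CPM after KCl, against 63.2, 63.5 and 61.3 CPM at basal. Myc had a log2 fold change of -0.06 and was not called.

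Inhibitors of the signalling that induces these genes rose as well. Of 10 MAP kinase phosphatases tested 8 rose, with a median of 1.34. Dusp5 had 169.9, 165 and 152 CPM after KCl, against 7.10, 9.49 and 8.67 CPM at basal (4.27 ± 0.10) and Dusp1 had 213, 206 and 192 CPM after KCl, against 10.9, 11 and 12.6 CPM at basal (4.14 ± 0.10). DUSP5 acts on ERK in the nucleus, and DUSP1 on JNK and p38 as well as ERK. The cytoplasmic ERK phosphatase Dusp6 (2.88 ± 0.08) and the nuclear Dusp4 (2.16 ± 0.10) rose too. Dusp2 (-0.33) and Dusp7 (0.23) were not called.

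Of 7 feedback inhibitors of receptor tyrosine kinases tested, 4 rose. Spry2 (1.94), Spry4 (1.43) and Spry1 (0.78) encode Sprouty proteins, which restrain RAS signalling, and Errfi1 (1.75) encodes an inhibitor of the EGF receptor. The 3 Spred genes lay between -0.17 and 0.17 and were not called. Among 8 genes of mRNA decay and the BTG/TOB family 7 rose, with Btg2 (4.53) and Tob2 (3.19) highest. BTG and TOB proteins recruit the CCR4-NOT deadenylase, and ZFP36 proteins bind AU-rich elements in short-lived mRNAs. Btg2 had 218, 201 and 183 CPM after KCl, against 8.69, 8.32 and 8.97 CPM at basal. Zfp36 had 11.6, 10.4 and 10.7 CPM after KCl, against 3.27, 2.51 and 2.61 CPM at basal (1.96 ± 0.13). All 3 GADD45 genes rose, Gadd45g by 3.54 and Gadd45a by 0.73.

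**Figure D3:**
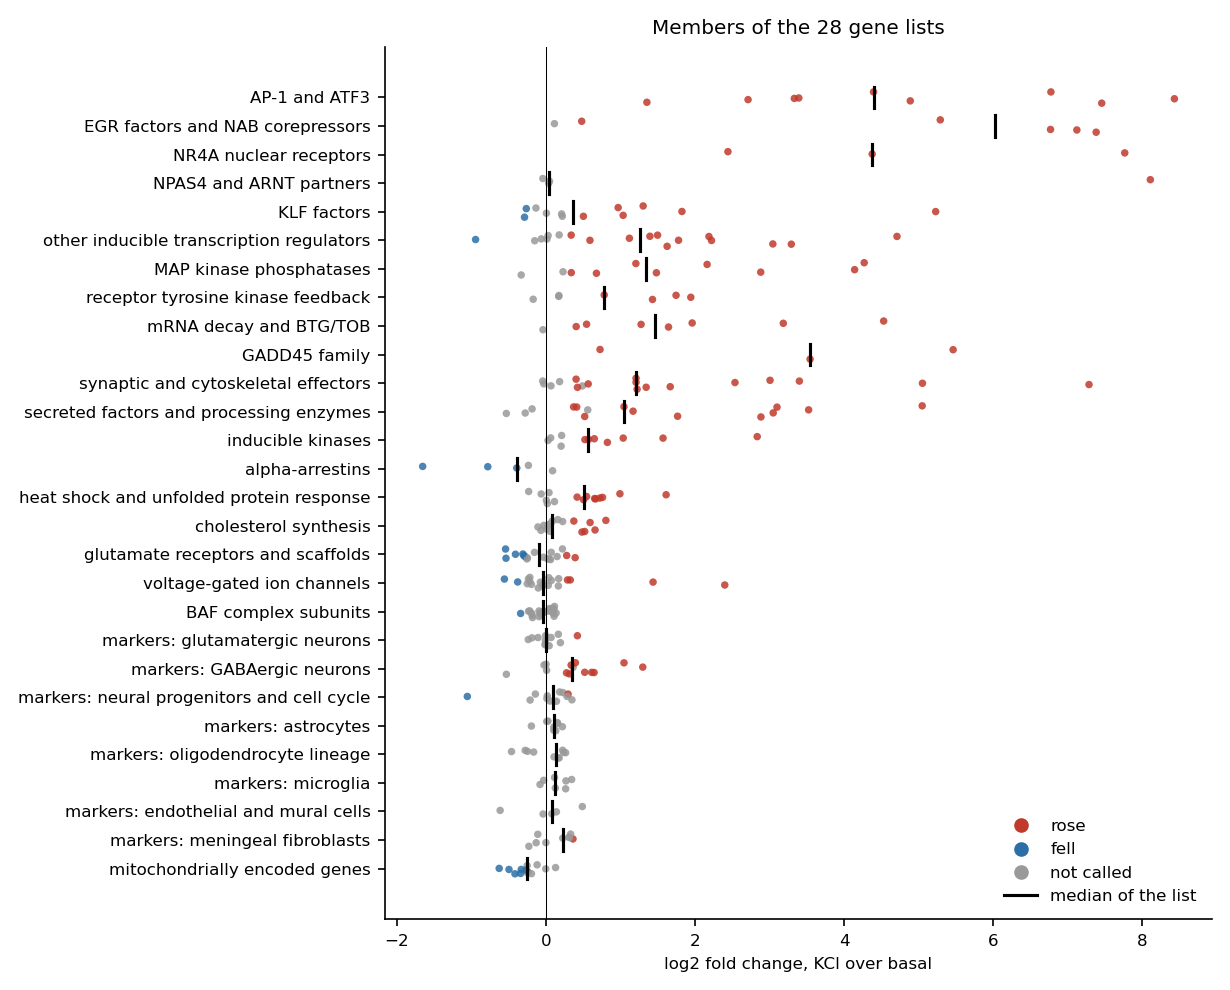
Log2 fold change (KCl over basal) of each tested member of the 28 gene lists; red points rose and blue points fell at an adjusted p under 0.05, grey points were not called, and black bars mark list medians. The AP-1, EGR, NR4A and GADD45 lists lie far to the right, the alpha-arrestin and mitochondrial medians lie left of zero, and the glial, vascular and BAF lists cluster around zero.

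Genes whose products act at synapses or outside the cell formed the other large group. Of 18 synaptic and cytoskeletal effectors 13 rose, with a median of 1.21. Arl4d, a small GTPase, had 244, 205 and 228 CPM after KCl, against 19.7, 22.3 and 22 CPM at basal (3.40 ± 0.09). Fbxo33, a ubiquitin ligase subunit, had a log2 fold change of 3.01 ± 0.09, and Rgs2, which speeds the shut-off of G proteins, had 2.54 ± 0.08. Nptx2, a pentraxin that clusters AMPA receptors, rose by 1.21, while its paralogue Nptx1 (-0.03) and the receptor Nptxr (0.07) were not called. Nptx2 had 67, 59 and 57.4 CPM after KCl, against 23.2, 30.5 and 25.8 CPM at basal. Pcdh8, an activity-regulated protocadherin, rose by 1.67, and Nrn1, the growth factor neuritin, by 1.21.

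Of 15 genes of secreted factors and their processing enzymes tested 11 rose, with a median of 1.05. Crh, corticotropin-releasing hormone, had 24.6, 23.3 and 23.4 CPM after KCl, against 2.19, 2.30 and 1.70 CPM at basal (3.53 ± 0.13). Bdnf, the neurotrophin with the best known activity-driven transcription, had 37.6, 43.8 and 33.1 CPM after KCl, against 4.77, 4.81 and 3.75 CPM at basal (3.10 ± 0.10). Vgf, a neuropeptide precursor, had 219, 167 and 149 CPM after KCl, against 21.6, 23.4 and 19 CPM at basal (3.05 ± 0.10). Their KCl libraries all lay above their basal libraries. Pcsk1, the convertase that cleaves such precursors, had 31.6, 41.8 and 29.6 CPM after KCl, against 5.33, 4.42 and 4.10 CPM at basal (2.89 ± 0.12). Ptgs2, which encodes the inducible cyclooxygenase, rose by 5.05 ± 0.28 with 6.52, 6.27 and 4.98 CPM after KCl, against 0.172, 0.130 and 0.218 CPM at basal. Npy (-0.53), Cort (0.56), Nts (-0.19) and Inhba (-0.28) were not called.

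Among 11 inducible kinases 7 rose. Sik1, a salt-inducible kinase that restrains CREB coactivators, had 276, 252 and 242 CPM after KCl, against 35.7, 34.7 and 37.5 CPM at basal (2.84 ± 0.09), whereas Sik2 (0.03) and Sik3 (0.20) were not called. Pim3 (1.57), Plk3 (1.04) and Plk2 (0.82) rose; PLK2 is known for its part in removing synaptic proteins after strong activity. Adrb1, the beta-1 adrenergic receptor, had 86, 78.4 and 86.7 CPM after KCl, against 15.8, 16.7 and 16.6 CPM at basal (2.35 ± 0.09).

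Transcript models were tested too, since activity can change which end or start of a gene is used. Of 36225 transcripts, 137 rose (0.378%) and 5 fell (0.0138%). The calls depended on every culture: 6 transcripts rose without SE culture 1, 21 without SE culture 2 and 16 without the wild-type culture, and 0 fell in each case. Homer1 encodes a scaffold that links metabotropic glutamate receptors to the postsynaptic density, and its short form Homer1a, made by activity, lacks the domain for that link. As a whole Homer1 (chr13:93299635-93405129, plus strand) rose by 1.22 ± 0.09. The model with the fewest exons, Homer1-204 with 5, had 91.8, 115 and 71.3 CPM after KCl, against 11.1, 10.5 and 9.75 CPM at basal (3.12 ± 0.14, adjusted p = 0.0122). The models of 9 and 10 exons did not pass the test: Homer1-202 had 21.6, 19.4 and 23.9 CPM after KCl, against 24.6, 24.8 and 26.4 CPM at basal (-0.23 ± 0.09, adjusted p = 0.472), and Homer1-203 had 14.3, 21 and 18 CPM after KCl, against 28.9, 23.6 and 26.9 CPM at basal (-0.59 ± 0.19, adjusted p = 0.418). Homer1-205, with 6 exons, had 17.9, 17.3 and 14.1 CPM after KCl, against 0.475, 0 and 0.219 CPM at basal, and its adjusted p was 0.138.

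Bdnf lies at chr2:109674700-109727007 on the plus strand. Its models share their last, coding exon and differ in the first one, which marks the promoter used. Bdnf-209 had 20.0, 28.8 and 18.9 CPM after KCl, against 0.992, 0.526 and 0.568 CPM at basal (5.00 ± 0.33, adjusted p = 0.0356). Bdnf-205 had 11.2, 9.23 and 10.4 CPM after KCl, against 2.55, 2.72 and 2.14 CPM at basal, which gave 2.06 ± 0.19 and an adjusted p of 0.0672. Bdnf-201 had 2.58, 3.42 and 2.18 CPM after KCl, against 0.345, 0.438 and 0.219 CPM at basal (adjusted p = 0.0881). Most Bdnf counts after KCl were thus assigned to Bdnf-209, and no other tested Bdnf model was called.

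**Figure D4:**
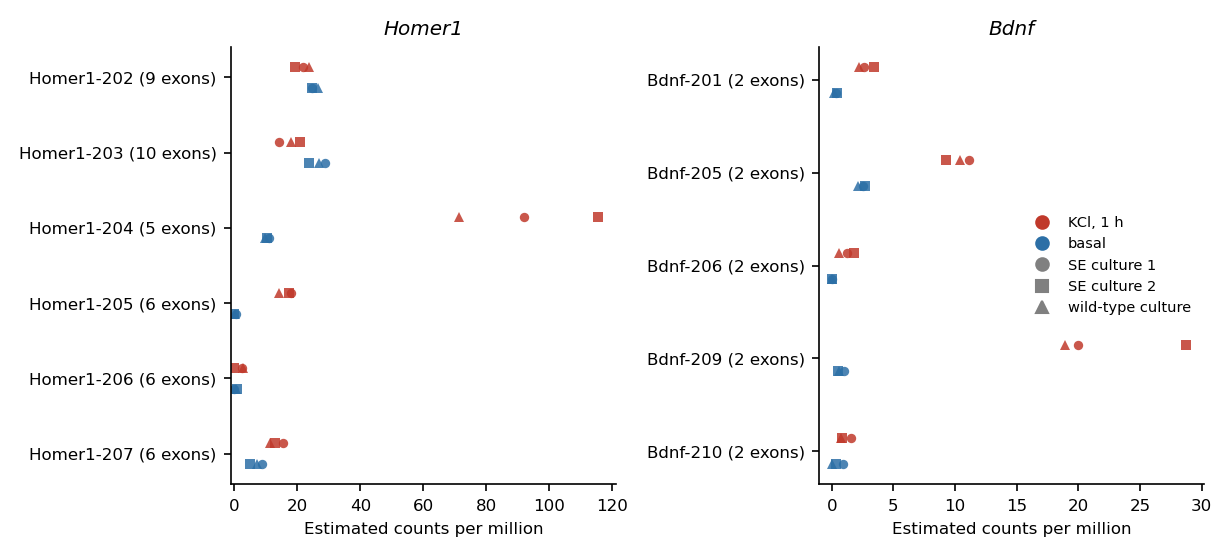
Level in each of the 6 libraries (CPM, linear scale) of the tested transcript models of Homer1 and Bdnf, with the exon number of each model, KCl in red, basal in blue and a symbol for each culture. Homer1-204 lies at 71.3 to 115 after KCl and 9.75 to 11.1 at basal, the models of 9 and 10 exons lie below their basal points after KCl, and Bdnf-209 has the highest KCl points among the Bdnf models.

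Of the 142 called transcripts 123 were protein coding and 7 carried a retained intron. Ccnl1, a cyclin that takes part in splicing, rose by 1.94 as a gene; its retained-intron model Ccnl1-202 had 8.67, 9.94 and 6.93 CPM after KCl, against 0.259, 0.263 and 0.394 CPM at basal (4.77 ± 0.33), and Ccnl1-203, marked for nonsense-mediated decay, had 22.3, 21 and 18.3 CPM after KCl, against 4.01, 3.15 and 3.06 CPM at basal (2.59 ± 0.12). Tra2a, a splicing factor, had a decay-marked model, Tra2a-202, with 18.8, 24.5 and 20.3 CPM after KCl, against 6.13, 6.44 and 5.03 CPM at basal (1.85 ± 0.13), and the whole gene rose by 0.53. Ip6k2 ran the other way: its retained-intron model Ip6k2-207 fell by 1.22 on the log2 scale while the gene rose by 0.43. These transcripts were chosen after their values were seen. Errors in assigning reads between models of a gene are not in these p-values.

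Genes not annotated as protein coding, pseudogenes included, made up 12% of all tested genes tied to 1 GENCODE gene. They were 51 of the 249 such genes that rose at least 2-fold (20.5%). Among those that fell at least 2-fold the share was larger, 35 of 125 (28%). Of the 51 that rose, 7 overlapped a coding gene that rose at least 2-fold and 3 more lay within 10000 bp of one. No source says that counting used the strand, so overlapping genes may share reads. The unnamed gene 1700016P03Rik (chr11:75172560-75177633, plus strand) spans the genes of miR-212 and miR-132, a pair of microRNAs that CREB induces in neurons. It had 20.0, 20.4 and 16.3 CPM after KCl, against 0.344, 0.823 and 0.218 CPM at basal (5.35 ± 0.19). Mir212 had 5.85, 4.06 and 4.07 CPM after KCl, against 0.0430, 0.173 and 0.174 CPM at basal. Mir132 had 2.23, 2.03 and 2.08 CPM after KCl, against 0, 0.0433 and 0.131 CPM at basal. All 3 rose in each culture. The reads come from the precursor or host RNA and do not measure the mature microRNAs, whose sequences from RefSeq (GRCm38.p6) are shown to compare their seeds, bases 2 to 8, in capitals.
miR-132-3p: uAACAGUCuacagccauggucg
miR-212-3p: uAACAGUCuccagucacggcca
miR-132-5p: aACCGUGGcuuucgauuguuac
miR-212-5p: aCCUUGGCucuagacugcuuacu

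The 3p arms lie at chr11:75173723-75173744 and chr11:75173443-75173464 on the plus strand and share the seed AACAGUC, while the 5p arms at chr11:75173686-75173707 and chr11:75173403-75173425 have different seeds. No change in their target genes is drawn from these data.

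The responding genes were short. Among protein-coding genes, the median span was 6988 bp with 4 exons for those that rose at least 8-fold and 9164 bp with 4 exons for those that rose at least 2-fold, against 25600 bp with 9 exons over all genes tested. Genes that fell at least 2-fold had a median span of 12240 bp, also with 4 exons.

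Many of the strongest falls were of zinc finger genes. The named genes that fell most were Zfp85 (-2.68 ± 0.25), Kbtbd8 (-2.41 ± 0.25), Zfp712 (-2.20 ± 0.17), Zfp108 (-2.17), Zfp960 (-2.07), Zfp708 (-2.06), Med18 (-1.92), Zfp599 (-1.86), Zfp472 (-1.77), Arrdc3 (-1.65), Zfp786 (-1.63), Zfp273 (-1.63), Zfp551 (-1.61), Zfp72 (-1.54) and Rsl1 (-1.52). Mouse genes of this kind often belong to the KRAB zinc finger family, which silences transposable elements and other genes through TRIM28. Zfp85 had 0.446, 0.751 and 0.607 CPM after KCl, against 3.91, 3.60 and 4.10 CPM at basal. Zfp712 had 1.43, 1.32 and 1.52 CPM after KCl, against 6.45, 6.15 and 7.14 CPM at basal. Zfp599 had 2.59, 3.58 and 3.47 CPM after KCl, against 11.9, 11.9 and 11 CPM at basal. In each, the highest KCl library lay well below the lowest basal library, but the levels were low.

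Across all 335 tested genes named Zfp with a number, 151 fell (45.1%) and 15 rose, with a median log2 fold change of -0.33; of the other 15572 genes 5.64% fell, with a median of 0.01. At least 2-fold falls numbered 43 of those 335 genes and 82 of the others. This set was drawn up after the values were seen, and it also holds Zfp36, which is of another family. Zfp85, Zfp712, Zfp708, Zfp273 and Rsl1 lie in one stretch of chromosome 13 between 67038596 and 67827002, a cluster of KRAB genes. Chromosome 13 held 16 of the genes that fell at least 2-fold (12.8%), against 3.88% of all genes tested, and chromosome 7 held 17 (13.6%), against 7.91%. Such genes are near copies of each other, so the split of reads among them is uncertain.

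Arrdc3 was the abundant exception among the strongest falls, with 34.8, 29.2 and 32.5 CPM after KCl, against 105, 98.5 and 101 CPM at basal (-1.65 ± 0.08, adjusted p = 2.74e-14). It encodes an alpha-arrestin that directs receptors such as the beta-2 adrenergic receptor to degradation (chr13:80883384-80896042, plus strand). Of 5 alpha-arrestins 3 fell: besides Arrdc3 these were Txnip, an inhibitor of thioredoxin and of glucose uptake, with 4.11, 4.42 and 3.90 CPM after KCl, against 6.80, 7.02 and 7.54 CPM at basal (-0.78 ± 0.14), and Arrdc4 (-0.39 ± 0.10), which was not called without the wild-type culture (adjusted p = 0.19). Arrdc1 (0.09) and Arrdc2 (-0.24) were not called. Med18, a Mediator subunit, had 0.714, 0.839 and 0.867 CPM after KCl, against 3.57, 2.73 and 2.96 CPM at basal, and Kbtbd8, an adaptor of the CUL3 ubiquitin ligase, had 0.491, 1.10 and 0.737 CPM after KCl, against 4.47, 3.77 and 4.14 CPM at basal. Per length the Kbtbd8 fall was smaller, with 0.992 TPM after KCl and 1.83 TPM at basal, and limma on log2(TPM + 1) and on log2(TPM + 0.1) did not call it (-0.54, adjusted p = 0.114, and -0.92, adjusted p = 0.123).

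Chaperone and stress genes rose by less. Of 15 genes of the heat shock and unfolded protein responses 9 rose, with a median of 0.51. Dnajb1, an HSP40 co-chaperone, had 145, 114 and 130.2 CPM after KCl, against 40.4, 43.8 and 42.4 CPM at basal (1.61 ± 0.09). Hspa1b (0.99) and Hspa1a (0.76) are near-identical HSP70 genes whose split of reads is uncertain. Herpud1 (0.67), Atf4 (0.65), Dnajb9 (0.51) and Hspa5 (0.42) rose, and Ddit3 (0.01) and Xbp1 (0.02) were not called. In cholesterol synthesis 6 of 17 genes rose and 0 fell. Among those that rose were Idi1 (0.66), Insig1 (0.59), Msmo1 (0.48) and Cyp51 (0.37). Idi1, an isomerase of the isoprenoid pathway, had 95.6, 114 and 92.8 CPM after KCl, against 63.3, 68.7 and 59.2 CPM at basal. The list median was 0.08, since the other 11 genes, Hmgcs1 (0.03) and Sqle (0.01) among them, were not called.

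Receptor and channel genes were called in both directions. Of 18 glutamate receptor and scaffold genes 6 fell (33.3%, against 6.48% of all genes) and 2 rose (11.1%, against 6.04%), with a median of -0.09. Grin2b, an NMDA receptor subunit of young neurons, had 224, 272 and 230.3 CPM after KCl, against 384, 279.6 and 402 CPM at basal (-0.54 ± 0.11), and Grin2a, the subunit that joins it with maturation, fell by 0.54 on the log2 scale. Gria2, the AMPA receptor subunit that limits calcium entry, had 194, 243 and 215 CPM after KCl, against 298, 258 and 307 CPM at basal (-0.41 ± 0.09). The ratio of KCl to basal was 0.584, 0.972 and 0.572 for Grin2b and 0.649, 0.939 and 0.700 for Gria2, so SE culture 2 fell least. The calls in this list depended on which cultures were in the fit: 1 member fell without the wild-type culture, 3 without SE culture 1 and 9 without SE culture 2. Among 20 voltage-gated channels 4 rose (20%, against 6.04% of all genes) and 2 fell (10%, against 6.48%). Kcnf1, a modifier subunit of delayed rectifier channels, had 184, 175 and 162 CPM after KCl, against 33.8, 33 and 31.6 CPM at basal (2.40 ± 0.08), and Kcnj2, an inward rectifier, had 8.53, 9.27 and 7.02 CPM after KCl, against 3.44, 2.60 and 3.09 CPM at basal (1.44 ± 0.15). Kcna4 fell (-0.56 ± 0.11), but not without the wild-type culture (adjusted p = 0.0688). None of the 4 sodium channel genes was called.

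Mitochondrially encoded transcripts made up 5.91% to 6.90% of counts after KCl and 7.35% to 8.31% at basal, with no overlap. Of 13 such genes 7 fell and 0 rose, with a median of -0.25. mt-Nd5, a subunit of complex I, had 3103, 3950.5 and 4218 CPM after KCl, against 5825, 4906 and 6674 CPM at basal (-0.63 ± 0.09). Without SE culture 1 the number that fell was 3, and without the wild-type culture it was 2.

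Smarca4, which carries the substitution in the SE cultures, had 474, 421 and 431 CPM after KCl, against 432, 427 and 425 CPM at basal, a log2 fold change of 0.05 ± 0.08 that was not called (adjusted p = 0.776). This level does not check the genotype, since a single residue change need not alter the count. Of 26 BAF subunits tested 1 fell (3.85%) and 0 rose, against 6.48% that fell and 6.04% that rose over all genes tested. That was Smarcd2 (-0.34 ± 0.10), which was not called when any 1 of the 3 cultures was left out (adjusted p = 0.0571 to 0.193). The BAF subunits of dividing progenitors, Actl6a (-0.19), Phf10 (0.02) and Ss18 (-0.09), and their counterparts in neurons, Actl6b (0.07), Dpf1 (0.07) and Ss18l1 (-0.09), were not called.

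Markers of cell types gave a check on makeup. Of 12 glutamatergic markers 1 rose, Fezf2 (0.42), a factor of deep-layer projection neurons, and 0 fell. Astrocyte, oligodendrocyte, microglial and endothelial lists had 0 calls among 9, 10, 7 and 5 genes tested, and the endothelial list had 10 genes before the filter. Over all genes tested 12.5% were called in either direction, so 0 calls in lists this short do not show a stable makeup. GABAergic markers stood out with 9 of 14 risen (64.3%, against 6.04% of all genes tested) and a median of 0.35. Dlx5 had 16.1, 12.7 and 12 CPM after KCl, against 6.75, 5.37 and 4.49 CPM at basal (1.30 ± 0.11) and Dlx2 had 17.9, 12.6 and 13.9 CPM after KCl, against 8.0, 6.45 and 6.93 CPM at basal (1.05 ± 0.11); both encode homeobox factors that specify interneurons. Sp9 (0.65), Sst (0.52), Gad1 (0.40) and Gad2 (0.34) rose by less. Npy (-0.53), the lowest of the list, Lhx6 (-0.03), Calb2 (0.00) and Nxph1 (0.01) were not called. The count was 6 without the wild-type culture. Of 12 progenitor and cell cycle markers 1 rose and 1 fell, with a median of 0.098, and their sum was 384 to 429 CPM after KCl and 338 to 397 CPM at basal. Pcna, the sliding clamp of DNA replication, rose (0.30 ± 0.08). Hes5, a Notch target of progenitors, fell (-1.06 ± 0.34), but not without SE culture 2 (adjusted p = 0.296) or without the wild-type culture (adjusted p = 0.0839). Its libraries held 0.848, 0.353 and 0.650 CPM after KCl and 1.08, 1.60 and 1.18 CPM at basal.

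Transcripts of choroid plexus, the epithelium that makes cerebrospinal fluid, differed between the libraries. A list of 12 such genes, written after the data were seen, summed to 23.4, 112 and 731 CPM after KCl and 15.4, 63.8 and 238 CPM at basal. The wild-type culture thus held the most in both treatments, and each KCl library held more than the basal library of its stem. Of 11 genes tested 6 rose, against 6.04% of all genes tested. Without the wild-type culture 3 of 10 rose, against 565 of 16022 genes tested in that fit. Ttr, transthyretin, had 8.08, 57.4 and 478 CPM after KCl and 0.688, 37.9 and 159 CPM at basal (1.36 ± 0.19, adjusted p = 8.07e-06). Enpp2 had 5.54, 35.1 and 184 CPM after KCl and 6.02, 15 and 52.5 CPM at basal. The part of unequal tissue content in other results was not tested. Meningeal fibroblast markers summed to 74.5 to 102 CPM after KCl and 57.7 to 99.5 CPM at basal, and 1 of 9 rose, Col1a1 (0.36 ± 0.12), which was not called when any 1 culture was left out.

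Within the SE line, the response of the SE cultures could be set against that of the wild-type culture only through a fit of all 14 libraries, in which the single wild-type culture was assumed to vary like the other cultures. Of 17296 genes 0 differed in response between SE and wild type by edgeR, and 0 by DESeq2, while 447 (2.58%) had an unadjusted p under 0.05. Differences, as SE minus wild type on the log2 scale, were 0.54 ± 0.26 for Fos, 0.21 ± 0.23 for Arc, 0.36 ± 0.18 for Egr1, 0.27 ± 0.21 for Nr4a1, -0.25 ± 0.21 for Npas4 and -0.18 ± 0.28 for Fosb, each with an adjusted p of 1.0. Fos thus had a log2 fold change of 7.67 in SE and 7.13 in wild type, and Fosb 8.40 in SE and 8.58 in wild type. With 1 wild-type culture and 3 residual degrees of freedom, large differences could be missed as well as small ones. The lack of calls therefore does not show that the responses were equal. The named genes with the lowest p were Fam205a2 and Fam205a3 (4.54 ± 0.90 each, copies that received the same counts), Krt18 (-3.30 ± 0.73), Trf (-1.19 ± 0.26) and Zbed6 (9.03 ± 2.04), with adjusted p of 0.364 to 0.628.

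The response of the SE line was also set against that of the SA line, with SE or SA and wild-type cultures together in each line. Of 17296 genes the log2 fold change was higher in the SE line for 151 (0.873%) and lower for 43 (0.249%). Without the culture block the counts were 27 and 3, and the lower count lay between 19 and 140 when 1 culture was left out. Line, litter, genetic background and any batch cannot be told apart, and the lines also differed in cell makeup: the SE line had 248 to 369 CPM of GABAergic, 730 to 817 CPM of astrocyte and 359 to 458 CPM of progenitor markers, against 703 to 908 CPM, 1898 to 3029 CPM and 1182 to 3854 CPM in the SA line. Xist and Ddx3y were both present in every SE-line library, whereas each SA-line culture had 1 of them at 0 to 0.549 CPM, scaled to the library's total, in both treatments, so the sex makeup of the wells cannot be told apart from line either. The part of makeup in these differences was not tested.

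Cyr61 differed most among the named genes. Levels here were scaled with all 14 libraries, and SA-line values run SA culture 1, SA culture 2, wild-type culture 1, wild-type culture 2. Cyr61 had 666, 565 and 646 CPM after KCl and 20.3, 13.5 and 22.6 CPM at basal in the SE line, against 112, 138, 224 and 124 CPM after KCl and 43.9, 108, 136 and 76.6 CPM at basal in the SA line. The difference of log2 fold changes was 4.30 ± 0.18 (SE line minus SA line, adjusted p = 3.40e-09), and the lines differed in both treatments. Arl4d had 263, 218 and 244 CPM after KCl and 20.7, 23.6 and 23.1 CPM at basal in the SE line, against 11.7, 14.4, 17.6 and 12.9 CPM after KCl and 9.85, 9.28, 10.3 and 9.52 CPM at basal in the SA line (2.89 ± 0.13, adjusted p = 6.43e-09). Adrb1 had 92.5, 83.3 and 92.7 CPM after KCl and 16.6, 17.8 and 17.3 CPM at basal in the SE line, against 17.6, 18.3, 22.2 and 17 CPM after KCl and 12.1, 19.3, 20.3 and 14.9 CPM at basal in the SA line (2.19 ± 0.13). In Arl4d and Adrb1 every SE-line KCl library lay above every SA-line KCl library.

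Nr4a2 ran the opposite way. It had 595, 615 and 527 CPM after KCl and 99.4, 109 and 105 CPM at basal in the SE line, against 173, 184, 179 and 192 CPM after KCl and 4.99, 4.34, 3.17 and 4.38 CPM at basal in the SA line (-2.97 ± 0.12, adjusted p = 3.40e-09). Its level was higher in the SE line in both treatments, and as a ratio the basal gap between the lines was the larger one. Txnip had 4.42, 4.69 and 4.17 CPM after KCl and 7.12, 7.45 and 7.90 CPM at basal in the SE line, against 5.94, 10.7, 12 and 9.18 CPM after KCl and 39, 45.9, 46.2 and 45 CPM at basal in the SA line (1.48 ± 0.18, adjusted p = 2.18e-04, and 0.119 without the culture block). Its KCl levels in the lines were closer than its basal levels, so the smaller fall in the SE line began from a lower basal level.

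For other strong responders no difference between the lines was called. Npas4 had a log2 fold change of 8.13 in the SE line and 8.14 in the SA line (difference -0.01 ± 0.09, adjusted p = 0.991), Egr4 7.41 and 7.23 (difference 0.18 ± 0.20), Bdnf 3.12 and 3.44 (difference -0.32 ± 0.21), and Fosb 8.46 and 9.24 (difference -0.78 ± 0.23, adjusted p = 0.165). By list, 7 of 9 AP-1 members, 6 of 10 MAP kinase phosphatases and 6 of 8 genes of mRNA decay and the BTG/TOB family had a larger response in the SE line, against 0.873% of all genes. Without the culture block these counts were 4, 1 and 1.

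**Figure D5:**
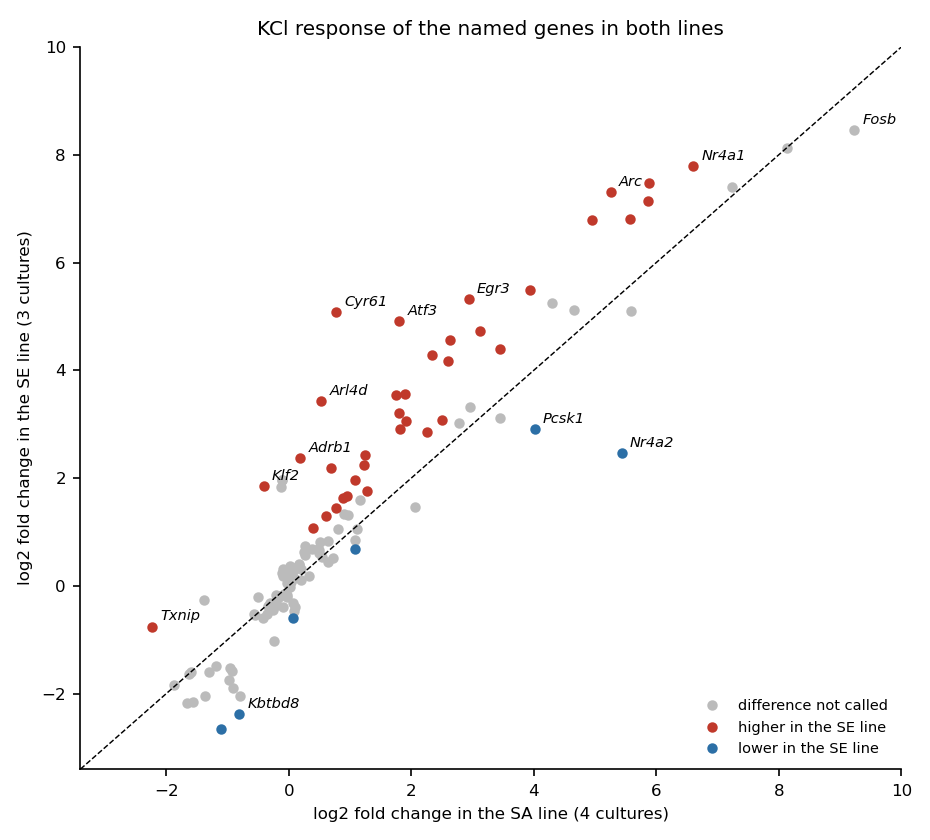
Log2 fold change (KCl over basal) of the named genes in the SE line (3 cultures, vertical axis) against the SA line (4 cultures, horizontal axis); red and blue points had a called difference, higher or lower in the SE line, grey points had none, and the dashed line marks equal responses. Cyr61, Atf3, Arl4d and Adrb1 lie far above the line, Nr4a2 and Pcsk1 below it, and Npas4 on it.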

How the data were processed

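Total RNA of cultured mouse cortical neurons was extracted with TRIzol and a column and sequenced with an Illumina kit, per the labels' protocols. Per the submitters' processing notes, the authors used kallisto 0.43.1, which assigns reads to transcripts without alignment, and builds GRCm38 and mm10. The deposited estimated count of a transcript or gene need not be whole, and 65.6% of nonzero gene values were not. The deposited TPM values, used for levels per length and as an alternative, are scaled to a common total and corrected for length. The matrices held 131100 transcripts and 52459 gene symbols.

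Estimated counts were rounded to whole numbers, filtered with filterByExpr on treatment and scaled by TMM. edgeR 4.0.16 in R 4.3.3 fitted a quasi-likelihood model to the 6 libraries with culture (name stem) as a block, leaving 2 residual degrees of freedom, supported by a prior of 22.0 shared across genes. Calls needed a p under 0.05 after Benjamini-Hochberg adjustment over the 15907 genes or 36225 transcripts tested. Levels are CPM; log2 fold changes are given ± the model's standard error. Differences in response between lines, and between SE and wild type, were interaction terms in fits of all 14 libraries (17296 genes), with 5 and 3 residual degrees of freedom. DESeq2 1.42.0, limma 3.58.1 and the other settings of the closing section served as alternatives. On simulated counts with known changes, the test of the KCl response (15907 genes) recovered 100% of genes changed 2-fold. It recovered 81% of those changed by 0.5 on the log2 scale, and 0.549% of its calls were unchanged genes. For the difference between lines (17296 genes) these values were 99%, 56% and 4.91%. The simulation gave all genes the same dispersion, each culture a level shared between KCl and basal, and the cultures of a line the same response. Changes were placed only in genes above a minimum count. The data need not meet these settings, so these rates may not hold for them.

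The members and the 28 gene lists were chosen with earlier results of these data known. Named genes are the 15 that rose and the 15 that fell most among called genes with a mean of at least 1 CPM, no overlap between KCl and basal libraries and a proper name, up to 4 members of each list with the lowest p, up to 5 genes with the lowest p in each test of a difference, and further members of the families described. Not every gene that this rule takes is reported. For some genes outside the rule, the text says that they were picked with their values in view. Others, such as 1700016P03Rik, carry no such statement. Coordinates are 1-based GRCm38 positions of GENCODE M21, and promoters and microRNAs are from RefSeq (GRCm38.p6).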

Additional observations from a re-analysis of the deposited data

Results flagged for a closer look

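The KCl response of 42 named genes differed between the SE line and the SA line by the interaction test of edgeR over all 14 libraries (adjusted p under 0.05). Values are log2 fold changes in the SE line minus those in the SA line, and the question of line, litter, background or batch cannot be told apart in any of them. Of the 42 differences 36 were higher and 6 lower in the SE line, 13 kept their call in the fit without the culture block, and 0 reversed under the 10 alternatives. Those 13 were Cyr61, Atf3, Arl4d, Adrb1, Arc, Egr1, Gadd45g, Ier2, Dusp4, Tob2, Junb, Nr4a1 and Nr4a2, and they kept it under every alternative. All others lost the call in at least 1 alternative, among them Egr3 and Fos in 1, Egr2 in 5, Vgf and Atf4 in 6 and Spry4 in 7.

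Among AP-1, EGR and NR4A factors the difference was 3.11 for Atf3, 2.38 for Egr3, 1.85 for Egr1, 1.60 for Fos, 1.28 for Egr2, 1.22 for Junb, 1.18 for Nr4a1, 0.95 for Nr4a3 and -2.97 for Nr4a2, whose sign differs from the rest. Egr3 had 225.7 to 269 CPM after KCl and 5.98 to 6.39 CPM at basal in the SE line. In the SA line it had 119 to 162 CPM after KCl. Its SA-line basal levels were 28.7, 22.9, 5.43 and 23.8 CPM (SA culture 1, SA culture 2, wild-type culture 1, wild-type culture 2). Wild-type culture 1 lay below the SE-line basal levels and the other SA-line cultures lay above them, so the lines overlapped at basal. Other transcription regulators gave 2.26 for Klf2, 1.62 for Ier2, 1.16 for Csrnp1, 1.02 for Cebpb, 0.68 for Dlx2 and -0.41 for Atf4.

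Phosphatases and feedback inhibitors gave 1.95 for Dusp5, 1.56 for Dusp1, 1.49 for Dusp4, 1.09 for Dusp6, 0.88 for Spry2, 0.69 for Spry4 and 0.49 for Errfi1. Genes of mRNA decay and the GADD45 family gave 1.92 for Btg2, 1.66 for Gadd45g, 1.55 for Gadd45b, 1.42 for Tob2, 0.72 for Tob1 and 0.69 for Btg1.

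Effectors, secreted factors, kinases and receptors gave 4.30 for Cyr61, 2.89 for Arl4d, 2.19 for Adrb1, 2.06 for Arc, 1.80 for Crh, 1.18 for Kcnf1, 0.61 for Sik1, 0.58 for Vgf and -1.11 for Pcsk1. The co-chaperone Dnajb1 gave 0.74 and the alpha-arrestin Txnip, which fell in both lines, 1.48. Values were also lower in the SE line: -1.55 for Zfp85, -1.58 for Kbtbd8 and -0.67 for mt-Nd5. The SE line had more glutamatergic and fewer GABAergic, glial and progenitor transcripts than the SA line, and the part of that in these differences was not tested.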

How the results depend on the processing

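Numbers of calls depended on the tool more than the named genes did. Against 960 rises and 1030 falls, of which 125 were at least 2-fold, DESeq2 gave 584 and 412, with 73 falls of at least 2-fold. limma on log2(TPM + 1) gave 595 and 270, with 28 falls of at least 2-fold, so that 68.8% of its calls were rises, against 48.2% in the edgeR fit, and on log2(TPM + 0.1) it gave 609 and 277. With 1 culture left out, rises ranged from 565 to 1815, falls from 460 to 1938 and falls of at least 2-fold from 108 to 212. Transcripts above 1 CPM gave 12 falls, and leaving out a culture gave 6 to 21 rises and 0 falls. For the difference between lines, leaving out 1 culture gave 103 to 216 higher and 19 to 140 lower. For SE minus wild type, DESeq2 size factors gave 1 gene higher, and leaving out 1 culture gave 0 to 8 higher and 0 to 4 lower; the SE-line wild type, being 1 culture, could not be left out there.

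Same-stem libraries did not all deviate together from their group means (correlations of 0.093, -0.052 and 0.223 for SE culture 1, SE culture 2 and the wild-type culture), so over all genes pairing by stem was not shown. Choroid plexus sums kept the order of the 3 stems in both treatments, and each SA-line stem held the same one of Xist and Ddx3y in both. With no replicate block the counts were 917 rises and 969 falls, with a genotype term instead 964 and 1014, for transcripts 547 rises and 213 falls without the block, and for the difference between lines 27 higher and 3 lower.

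Of 98 named genes called, 80 kept their call under all 13 alternatives. Over 1697 comparisons of 131 genes, 1595 kept direction and side of the threshold, 70 lost and 23 gained a call. The 9 reversed values were all of genes that were not called in the fit of genes: Arrdc2 at 0.0375 and 0.0423 and Trf at -0.0688 and -0.0736 (limma on log2 TPM), and, with 1 culture left out, values of -0.0084 to 0.33 for Aldoc, -0.29 to 0.45 for Trf, -1.30 to 0.64 for Zbed6, -0.092 to 0.034 for Arnt and -0.28 to 0.54 for Vtn. Their cause was not tested. Counts and medians of lists stayed within 1.5 times or the spread of cultures in 992 comparisons and moved further in 100. The error in assigning reads to paralogues and transcript models is unknown.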

Other observations

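Several strong responders belong to none of the lists and were chosen here after their values were seen. Tiparp, a PARP enzyme induced by the aryl hydrocarbon receptor, had 240.0, 266 and 213 CPM after KCl, against 11.1, 10.9 and 10.8 CPM at basal (4.45 ± 0.10). Spty2d1, a histone chaperone gene, had 183, 185 and 172 CPM after KCl, against 14, 12.3 and 13.9 CPM at basal (3.75 ± 0.09). Sertad1, a regulator of cyclin-dependent kinase, had 17.6, 12.8 and 11.1 CPM after KCl, against 1.33, 1.82 and 1.31 CPM at basal (3.20 ± 0.16). All of these had KCl libraries well above their basal libraries. Trib1, a pseudokinase that steers C/EBP proteins to degradation, had 58.1, 48.6 and 45.8 CPM after KCl, against 6.58, 5.54 and 6.32 CPM at basal (3.04 ± 0.10). Ppp1r15a, which returns eIF2alpha to its active state under stress, had 385, 352 and 332 CPM after KCl, against 46.2, 46.1 and 43.2 CPM at basal (2.98 ± 0.08). Hic1, a transcriptional repressor, lies close to the miR-212 and miR-132 genes on chromosome 11 and had 19.6, 13.1 and 13.8 CPM after KCl, against 0.688, 0.866 and 0.915 CPM at basal (4.21 ± 0.17). Nfkbid, an atypical inhibitor of NF-kappaB, had 20.4, 17.8 and 14.5 CPM after KCl, against 1.94, 1.65 and 1.79 CPM at basal (3.29 ± 0.14).

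Genes of the main glucose transporters of brain, also chosen after their values were seen, rose. Slc2a3, the main transporter of neurons, rose by 0.75 ± 0.08, with 192, 183 and 159 CPM after KCl, against 104, 106 and 106 CPM at basal, and its retained-intron model Slc2a3-204 had 13, 13.8 and 9.81 CPM after KCl, against 1.42, 1.10 and 1.14 CPM at basal (3.31 ± 0.20). Slc2a1, the transporter of glia and endothelium, rose too, with 56.8, 48.8 and 49.4 CPM after KCl, against 24.4, 19.3 and 25.7 CPM at basal (1.16 ± 0.09, adjusted p = 3.06e-10).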
